A study of Mus musculus with 16 samples.

Results

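The comparison described here was that of P19 cells, a mouse embryonal carcinoma line, transfected with a let-7a mimic against P19 cells transfected with controls. Its members were the 4 arrays labelled let-7a and the 4 labelled control, that is, 8 of the 16 arrays of the series, and all genes measured on them. The final concentration of each siRNA or mimic was 24 nM by the study's methods, and which control molecules the control and let-7a cells of the arrays received is not given there. Total RNA was collected 48 h after transfection, labelled with Cy3 and hybridized to Agilent mouse arrays of 1 colour. The other 8 arrays held cells transfected with an siRNA against Sfpq, an RNA-binding protein, without (siSfpq) or with the let-7a mimic (let-7a + siSfpq). A mimic raises a miRNA above its level in the cell, and the level reached was not measured on these arrays.

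let-7 miRNAs guide Argonaute proteins to mRNAs that pair with their seed, the bases next to the 5′ end of the miRNA, and thereby lower the stability and translation of these mRNAs. They are scarce in stem cells, where the Lin28 proteins block their maturation, and abundant in differentiated tissues. Their best known targets are oncofetal genes, which are active in the embryo and in tumours, and drivers of the cell cycle. P19 cells resemble the epiblast of the early embryo and can form neurons, glia or muscle under suitable culture conditions. The mature sequences below are those of the transfected miRNA and of 3 relatives, taken from RefSeq (build GRCm38.p6), with the seed (bases 2 to 8) in capitals. These 4 share their seed and differ in other bases, and of the 11 let-7 and miR-98 sequences in that table only that of let-7j has another seed.
let-7a-5p: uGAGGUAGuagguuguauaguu
let-7b-5p: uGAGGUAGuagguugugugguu
let-7g-5p: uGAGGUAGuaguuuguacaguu
miR-98-5p: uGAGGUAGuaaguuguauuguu

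Between 33733 and 38464 of 59305 spots per array were well above background. Levels are given as log2 of the background-corrected intensity after quantile normalization, and a change is the mean log2 level with let-7a minus that in control. Arrays 1 and 2 of both groups differed by as little as repeated spots of 1 probe (a spread of 0.0612 to 0.0614 in let-7a and control, against 0.0626 for repeated spots). In siSfpq the spread was 0.0605 and in let-7a + siSfpq 0.0761, the latter above that of repeated spots but below that of any other pair of arrays of its group. The mean of both served as a single sample in all groups, so that each group had 3 samples. Values per sample are given below in the order of averaged replicates 1 and 2, replicate 3 and replicate 4. In control and let-7a, replicate 3 stood apart from the others, with spreads of 0.222 to 0.303 against the other arrays of its group, whereas array 4 was at 0.122 to 0.150 from arrays 1 and 2. In the knockdown groups these spreads were 0.276 to 0.386 and 0.143 to 0.165. The methods speak of 3 transfected replicates per group, whereas the labels give 4 arrays, and neither says whether arrays 1 and 2 held the same RNA or the replicates were separate cultures, so that p values measure the spread between these samples, which may be technical in part. All 12 markers of P19 cells were measured and well above background on the 4 control arrays, at mean levels of 6.96 to 14.6. The 8 neuronal markers were also above background on all control arrays, at 5.47 to 14.6.

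Of 17405 genes tested, 919 (5.28%) rose and 382 (2.19%) fell with let-7a at a limma adjusted p under 0.05. Among the genes that rose, 530 changed by at least 1 on the log2 scale and 132 by at least 2, whereas 34 of the genes that fell changed by at least that first amount and 1 by the second. The median change was 1.12 for genes that rose, -0.56 for genes that fell, and -0.03 for all genes. Genes that rose started from low levels, with a median of 7.57 in control, whereas genes that fell started from 11.1 and all genes had a median of 8.96. A probe dim in control was kept only if well above background on every array of another group, and a dim gene can hardly fall. Control level and direction of change are therefore not independent here. Of the genes that rose, 46 were not well above background on any control array, so that their fold changes are lower bounds. A further 88 were above background on only some control arrays, so that the sizes of their changes are uncertain. In RNA from a whole culture, a change in the share of cells of a type and a change in RNA per cell cannot be told apart.

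Replicates with the same number deviated together from their group means, so that the replicate was also fitted as a block. With the block, 2098 genes (12.1%) were higher and 1781 (10.2%) lower, and they included all 919 and 382 of the fit without it. The counts depended on replicates 3 and 4. As replicates 1 and 2 were averaged, a fit without replicate 3 or without replicate 4 had 2 samples per group. Without replicate 3, limma called 2834 genes (16.3%) higher and 2626 (15.1%) lower, and the counts of each list in that fit stand against these shares. Without replicate 4, it called 2 higher, Scg2 and 4930519N06Rik, and 0 lower, so that no other gene named below passed without that replicate. Other settings are given below where they moved a count of 4 or more genes of a list, or a printed median of at least 0.2 in size, by over 1.5 times. They were scaling of each array by its 75th percentile in place of quantile normalization, normexp background correction, no filter on dim probes, only probes well above background on all 16 arrays, the authors' processed table, the brightest probe of each gene and a fit without an intensity trend. The median change of the 919 genes by replicate, in the order given above, was 1.20, 0.97 and 1.22, and that of the 382 genes was -0.63, -0.43 and -0.65.

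**Figure D1:**
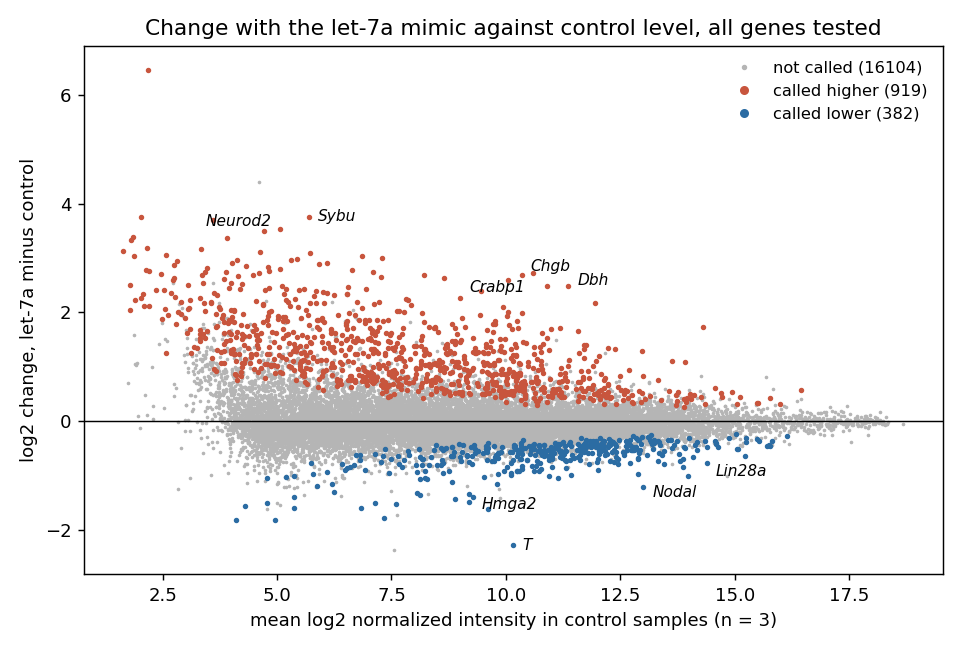
Each point is 1 of 17405 genes, with its mean log2 normalized intensity in the 3 control samples on the x axis and its log2 change with let-7a on the y axis. Genes called higher (orange, 919) lie mostly at low control levels and reach larger changes than genes called lower (blue, 382), among which T has a change of -2.29. Genes dim in control passed the filter only through another group.

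Of the oncofetal let-7 targets, all 15 measured genes had a negative change, 4 of them passed the test, and the median change was -0.39. With the replicate as a block 7 passed, and without replicate 3 10 passed. The largest change was that of Hmga2, a chromatin protein of embryonic and tumour cells. Its level was 9.43, 8.95 and 9.44 in control and 7.69, 8.29 and 7.66 with let-7a, so that each let-7a sample was below each control sample. Hmga2 fell by 1.40 (standard error 0.27, limma adjusted p = 0.0109), that is, it was 2.63-fold lower. Lin28a, the RNA-binding protein that blocks let-7 maturation, was at 14.40, 14.34 and 14.42 in control and 13.43, 13.69 and 13.71 with let-7a. Its change was -0.77 (standard error 0.11, limma adjusted p = 0.00227). The other members that passed were Trim71, an RNA-binding ubiquitin ligase of stem cells (-0.57, limma adjusted p = 0.0261), and Igf2bp2, which binds and stabilizes mRNAs (-0.39, limma adjusted p = 0.0283). With the block, Lin28b also passed (-0.58, limma adjusted p = 0.00562 against 0.0737 without it), as did E2f5 (-0.74, limma adjusted p = 0.00102 against 0.226) and Nr6a1 (-0.54, limma adjusted p = 0.00606 against 0.0979). Igf2bp1 and Igf2bp3, paralogs of Igf2bp2, had changes of -0.19 and -0.22 and did not pass.

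The probes of the array are 60 bases long and can hold a target site by chance. The letters CTACCTC, the complement of the let-7 seed, were searched on the sense strand in the 23677 probes tested, of which 99.4% had the strand of their gene where both were known. They occurred in 0.452% of these probes, each of another gene, and of these genes 5 (4.67%) rose and 2 (1.87%) fell, with a median change of -0.08. These shares were near those of all genes (5.28% and 2.19%). With the block 11 (10.3%) were higher and 13 (12.1%) lower, against 12.1% and 10.2% of all genes. Hmga2 was among the genes that fell, by 1.30 with this probe. The stretch below comes from it, with the complement of the seed in capitals, and lies at chr10:119798739-119798768 in build mm9, on the minus strand. A match in a probe does not show that let-7a bound there, and whole 3′UTRs were not searched.
Hmga2: atcaaaacacactaCTACCTCttaagtccc

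Of 26 measured let-7 targets of growth and signalling pathways, 2 rose and 2 fell, with a median change of -0.01 that was above 0 without replicate 4 (0.0082) and without the filter on dim probes (0.0206). Myc, a transcription factor that drives growth, was at 10.16, 10.47 and 10.08 in control and at 9.10, 9.76 and 9.09 with let-7a, without overlap (change -0.92, standard error 0.18, limma adjusted p = 0.0106). Dicer1, which cuts miRNA precursors, fell by 0.46 (limma adjusted p = 0.00785). The death receptor Fas, which is described as a let-7 target, rose by 0.95 (limma adjusted p = 0.0331). It was above background on 2 of 4 control arrays, so that the size of this rise is uncertain. With the block, 7 genes of this list were higher and 3 lower. Without replicate 3, 5 were higher and 5 lower.

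Among 18 genes of the miRNA machinery, 1 rose (5.56%) and 2 fell (11.1%), against 5.28% and 2.19% of all genes. Without replicate 3, 4 were higher and 2 lower, where 16.3% and 15.1% of all genes were. Besides Dicer1, its partner Tarbp2 fell by 0.49 (limma adjusted p = 0.0193). Ago4, an Argonaute, rose by 0.68 (limma adjusted p = 0.0167), whereas Ago2 had a change of -0.17 and Drosha, which starts miRNA processing, one of -0.01. Sfpq itself was at 11.98 to 12.07 in control and 11.90 to 12.04 with let-7a, with overlapping groups and a change of -0.03 (limma adjusted p = 0.960). Of 597 measured genes for which the study lists a 3′UTR Ago2 peak that was reduced without Sfpq, 22 rose (3.69%) and 18 fell (3.02%). Of all genes, 5.28% rose and 2.19% fell. The median change of the 597 genes was -0.03, as was that of all genes. With the block 64 of these genes were higher and 77 lower, where 12.1% and 10.2% of all genes were.

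**Figure D2:**
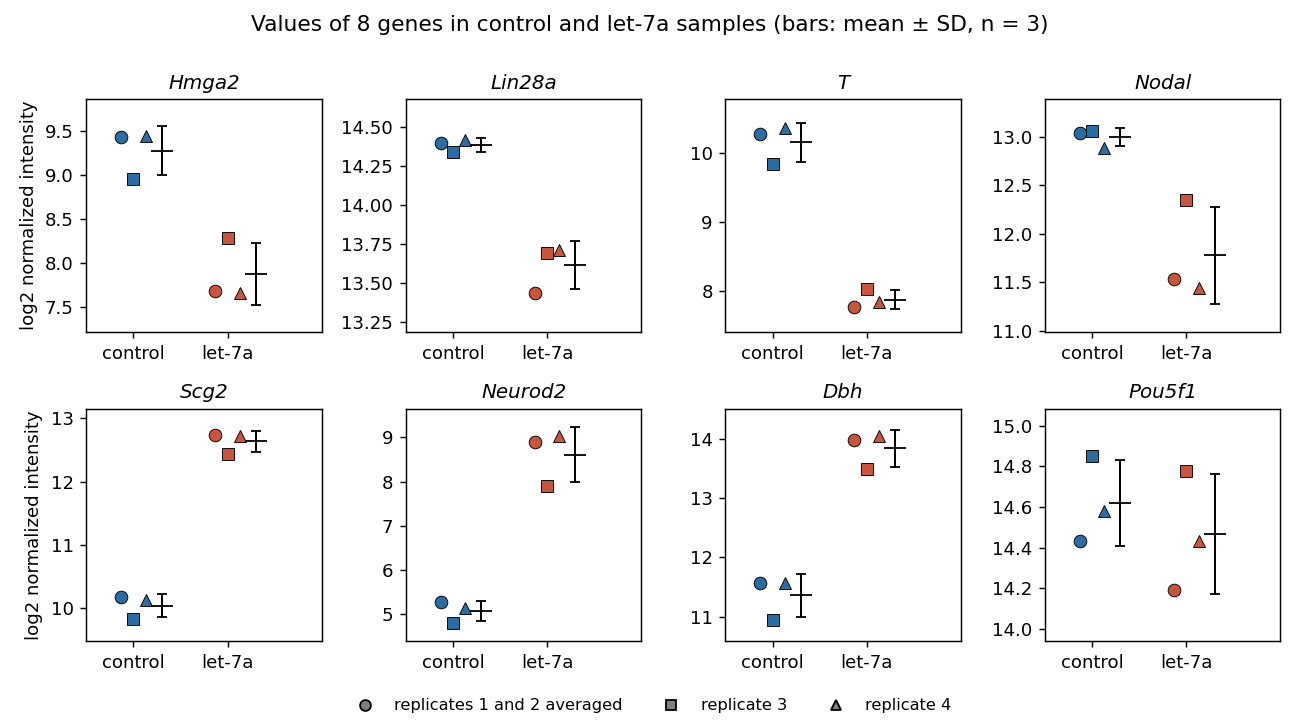
Log2 normalized intensity of 8 genes in control (blue) and let-7a (orange) samples, with the mean ± SD of 3 samples beside the points. Hmga2, Lin28a, T and Nodal are lower in every let-7a sample than in every control sample, Scg2, Neurod2 and Dbh are higher, and the values of Pou5f1 overlap between groups, although each let-7a value lies below the control value of the same replicate.

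Among genes that drive the start of the cell cycle a few fell, and among their inhibitors several rose. Of 13 G1 cyclins, kinases and E2F factors, 2 fell and 0 rose, with a median change of -0.35. Ccne1, the cyclin of S phase entry, fell by 0.70 (limma adjusted p = 0.0182) and E2f3, a factor that turns on S phase genes, by 0.53 (limma adjusted p = 0.0138). With the block, 7 genes of this list passed as lower, and without replicate 3 7 were lower and 1 higher. Cyclin D1 (Ccnd1) was at 7.62, 6.67 and 7.41 in control and 6.52, 6.15 and 6.28 with let-7a, a change of -0.92 that passed with the block (limma adjusted p = 0.0221) and not without it (0.265). Cdk6, its kinase partner, had a change of -0.78 and passed in neither fit (limma adjusted p = 0.0515 with the block).

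Of 10 CDK inhibitors and members of the retinoblastoma family, 5 rose and 0 fell, with a median change of 0.53. Cdkn1b (p27) was at 10.20, 10.16 and 9.87 in control and 10.71, 10.54 and 10.59 with let-7a (change 0.54, limma adjusted p = 0.0183). The others that rose were Cdkn2b (0.54), Cdkn2d (0.46), Cdkn2a (0.32) and Rb1 (0.53), at limma adjusted p values of 0.0193 to 0.0492. The count of 5 was 2 with the 75th percentile scaling and with the brightest probe, and 3 without an intensity trend and without replicate 1. Cdkn1a (p21) had a change of 0.98 that passed only with the block (limma adjusted p = 0.00792 against 0.0795). Of 19 p53 target genes, 5 rose and 0 fell, with a median change of 0.29, led by Btg2, an antiproliferative factor (1.38, limma adjusted p = 0.0081). Bbc3, a proapoptotic member of the Bcl2 family, rose by 0.81 (limma adjusted p = 0.0311), whereas Mdm2, the negative regulator of p53, had a change of 0.05. With the block 8 of these genes were higher, and without replicate 3 9 were higher and 1 lower.

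Of 36 genes of DNA replication, 4 fell and 0 rose, with a median change of -0.24, and 17 passed as lower with the block. With the 75th percentile scaling, with no filter and without replicate 1, 2 were lower, and 1 was without an intensity trend. Those that fell were Rrm2, a subunit of ribonucleotide reductase (-0.54, limma adjusted p = 0.0426), Mcm10 (-0.54, limma adjusted p = 0.0412) and Cdt1 (-0.48, limma adjusted p = 0.0261), which prepare origins, and Pold1, a DNA polymerase subunit (-0.35, limma adjusted p = 0.0175). Cdc6, a licensing factor, had a change of -0.82 and passed with the block (limma adjusted p = 0.000929 against 0.126). The 31 mitotic genes all had a negative change, from -0.65 to -0.18 and with a median of -0.43, but by limma 0 passed the test, with 16 lower at an unadjusted p under 0.05. With only the 2 groups compared in the fit, 10 of them passed as lower. With the block 9 did, among them Top2a (-0.58, limma adjusted p = 0.0355), and 26 did so without replicate 3, as did 21 replication genes.

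Genes of the primitive streak and mesendoderm, the progenitors of mesoderm and endoderm, held the largest fall of a gene that passed the test. Of 21 genes, 6 fell and 1 rose, with a median change of -0.44, and without replicate 3 12 were lower and 3 higher. The median was -0.20 with normexp, and -0.70 over the 16 genes with probes well above background on all arrays. T (brachyury), the T-box factor that defines the streak, was at 10.28, 9.83 and 10.36 in control and 7.75, 8.02 and 7.83 with let-7a. Its change of -2.29 (standard error 0.36, limma adjusted p = 0.00342) was 4.88-fold and the only called fall beyond 2 on the log2 scale. Fgf8, a signal of the streak, was at 7.60, 7.59 and 7.59 in control and 5.76, 6.50 and 5.94 with let-7a (change -1.53, limma adjusted p = 0.00182). Gsc, the homeobox factor of the organizer, fell by 1.44 (limma adjusted p = 0.00111). Nodal, the TGFβ ligand that induces mesendoderm, was at 13.05, 13.07 and 12.89 in control and 11.54, 12.35 and 11.44 with let-7a (change -1.22, limma adjusted p = 0.0108). Snai1, a repressor of epithelial genes, fell by 0.95 (limma adjusted p = 0.0228). The sixth gene, Sp8, had 2 probes with changes of -1.28 and 0.05, so that its fall by 0.61 rests on 1 of them. Lefty1, a Nodal inhibitor, had a change of -1.01 and passed with the block only (limma adjusted p = 0.00298 against 0.0517). Lhx1, the member that rose (1.54, limma adjusted p = 0.00596), is a LIM homeobox factor of the organizer that is also found in neurons.

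Of 28 genes of FGF and ERK signalling, 4 fell and 2 rose. Besides Fgf8, Egr2, an early response factor, fell by 1.04 (limma adjusted p = 0.0464), Fgfr3 by 0.52 (limma adjusted p = 0.0487) and Spred1, an inhibitor of the pathway, by 0.46 (limma adjusted p = 0.00891). Fgf1 rose by 2.14 (limma adjusted p = 0.000661) and Egr1 by 1.80 (limma adjusted p = 0.00636). Egr1 and Egr2, which are paralogs, thus changed in opposite directions in these samples. With the block, 5 genes of the list were higher and 6 lower, and without replicate 3 7 and 10. With the 75th percentile scaling 2 were higher and 2 lower, with no filter on dim probes 1 and 0, and among the 25 genes well above background on all arrays 1 and 2.

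Most pluripotency genes did not pass the test. Of 25 genes, 2 fell and 0 rose, with a median change of -0.04, which was -0.12 without replicate 4, -0.10 without replicate 1 and -0.15 with the brightest probes. Pou5f1 (Oct4), which maintains pluripotency, was at 14.43, 14.85 and 14.58 in control and 14.19, 14.78 and 14.43 with let-7a, with overlapping groups (change -0.15, limma adjusted p = 0.631, and 0.268 with the block). Each let-7a sample was below the control sample of its own number. Sox2, its partner, had a change of 0.12 (limma adjusted p = 0.797). Nanog was at 10.16, 10.11 and 10.14 in control and 9.41, 9.76 and 9.50 with let-7a and fell by 0.58 (limma adjusted p = 0.00716). Utf1, a chromatin factor of pluripotent cells, fell by 0.70 (limma adjusted p = 0.0362). Tdgf1, a Nodal coreceptor, had a change of -0.76 that passed with the block only (limma adjusted p = 0.0123 against 0.152). With the block 5 genes of the list were lower and 3 higher, and without replicate 3 9 were lower and 4 higher.

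**Figure D3:**
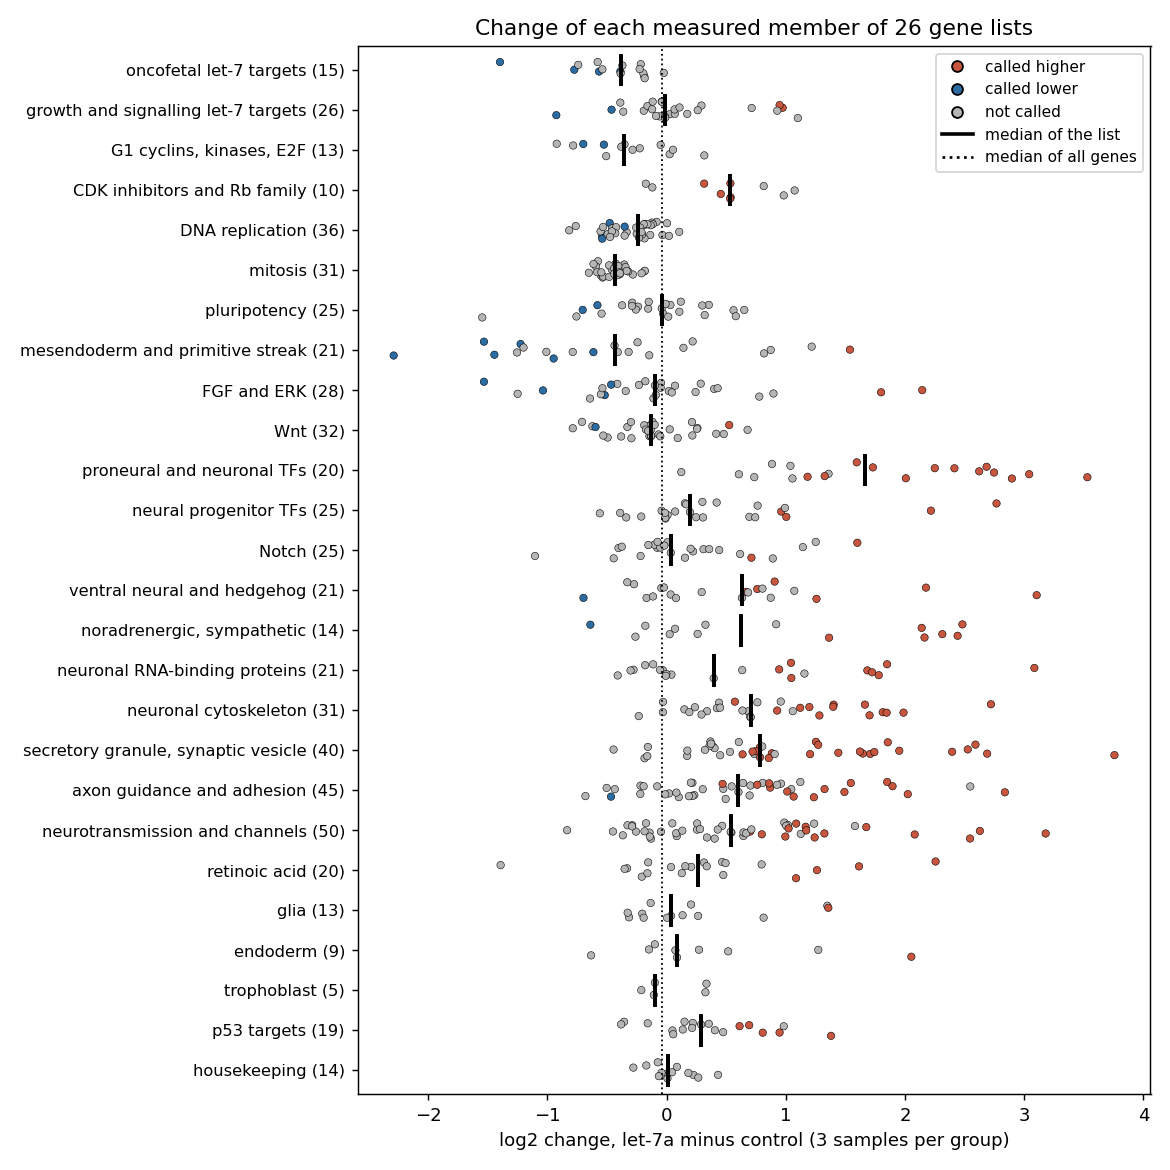
Each point is the log2 change of 1 measured member of 26 gene lists, with the number measured in parentheses, the median of each list as a black bar and the median of all genes (-0.03) as a dotted line. Medians range from -0.44 for the mesendoderm list to 1.66 for the proneural list, and neuronal lists hold most of the genes called higher (orange). The lists were chosen with earlier results of these data known.

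Transcription factors of neurogenesis held the highest median of all lists. The lists were chosen with earlier results of these data known, so that this ranking only describes them. Of 20 measured genes, 13 rose and 0 fell, with a median change of 1.66. With the block 16 passed, as did 16 without replicate 3. With only probes well above background on all 16 arrays 7 genes of the list were left, of which 4 were higher, with a median change of 1.18. Neurod2, a bHLH factor of differentiating neurons, was at 5.27, 4.81 and 5.14 in control and 8.90, 7.90 and 9.02 with let-7a, that is, 11.6-fold higher (change 3.53, standard error 0.40, limma adjusted p = 0.000661). The related factors Nhlh2 (3.04, limma adjusted p = 0.0176), Neurod1 (2.75, limma adjusted p = 0.000912) and Neurod4 (2.41, limma adjusted p = 0.000389) rose as well. Neurog2, a proneural factor that acts before them, was at 7.87, 7.36 and 7.96 in control and 9.54, 8.73 and 9.71 with let-7a (change 1.60, limma adjusted p = 0.0181). All 3 genes of the Myt family of zinc finger factors, which repress non-neuronal genes, rose, with changes of 2.90 for St18, 2.68 for Myt1l and 2.62 for Myt1 (limma adjusted p values of 0.00184 to 0.0035). For Neurod2 and Neurog2, replicate 3 had the lowest let-7a value, and the groups did not overlap. Neurog3, Olig3 and Nhlh1 had changes of 1.06, 0.74 and 0.61 and did not pass, but Nhlh1 did with the block (limma adjusted p = 0.0118 against 0.103).

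Of 25 Notch pathway genes, which hold neural progenitors back from differentiation, 2 rose and 0 fell. These were Dll3, an atypical Notch ligand, at 9.09, 8.76 and 8.97 in control and not below 9.77 with let-7a (change 1.60, limma adjusted p = 0.0119), and the coactivator Maml3 (0.71, limma adjusted p = 0.0315). Notch3 had a change of -0.44 and Maml1 one of 0.04. Of 25 neural progenitor genes, 4 rose and 0 fell, namely, the homeobox factor Six3 (2.77, limma adjusted p = 0.0117), the POU factors Pou3f2 (2.22, limma adjusted p = 0.000661) and Pou3f1 (1.0, limma adjusted p = 0.0391), and Sox9 (0.96, limma adjusted p = 0.0461). Nes and Vim, intermediate filaments of progenitors, had changes of 0.25 and 0.30 and did not pass, but Vim did with the block (limma adjusted p = 0.0358 against 0.144). With the block 6 Notch genes were higher and 3 lower and 7 progenitor genes higher and 2 lower, and without replicate 3 the counts were 8 and 4, and 10 and 2. The 4 progenitor genes became 2 with the 75th percentile scaling, 1 with no filter on dim probes and 1 of the 19 with probes well above background on all arrays.

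Genes of noradrenergic and sympathetic neurons rose in part. Of 14 genes, 6 rose and 1 fell, with a median change of 0.62, which was 0.29 over the 12 genes with probes well above background on all arrays. Dbh, which turns dopamine into noradrenaline, was at 11.57, 10.94 and 11.56 in control and 13.99, 13.49 and 14.05 with let-7a (change 2.48, limma adjusted p = 0.00607). Phox2a, a homeobox factor of these neurons, was at 10.26, 10.21 and 10.22 in control and 11.75, 11.31 and 11.72 with let-7a (change 1.36, limma adjusted p = 0.00182). Hand2, a bHLH factor, rose by 2.31 (limma adjusted p = 0.00596). It was above background on 1 of 4 control arrays, so that the size of this rise is uncertain. Chrnb4, a nicotinic receptor subunit, rose by 2.14 (limma adjusted p = 0.00111). Other genes of the pathway differed from these. Th, the rate-limiting enzyme of catecholamine synthesis, had a change of 0.03 (limma adjusted p = 0.931) and Ddc one of 0.26, and Slc18a2, the vesicular monoamine transporter, fell by 0.64 (limma adjusted p = 0.0311).

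Among 21 genes of the ventral neural tube and hedgehog signalling, 6 rose and 1 fell. Nkx2-9, a homeobox factor of the ventral neural tube, was at 4.68, 4.35 and 4.84 in control and 8.40, 6.47 and 8.31 with let-7a (change 3.1, limma adjusted p = 0.0069). Isl1, a factor of motor and sensory neurons, rose by 2.18 (limma adjusted p = 0.00184) and Dbx1 by 1.26 (limma adjusted p = 0.0153). Gli3, the repressor of hedgehog targets, was at 12.02, 12.08 and 11.96 in control and 11.27, 11.43 and 11.27 with let-7a and fell by 0.70 (limma adjusted p = 0.000723). With the block 8 genes of this list were higher and 2 lower, and without replicate 3 11 and 2. Of the 16 genes with probes well above background on all arrays, 3 were higher and 1 lower.

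Neuronal RNA-binding and splicing factors rose in 8 of 21 cases, with 0 lower and a median change of 0.40, which was 0.67 with the brightest probes and 0.62 without replicate 3. Celf3 was at 5.06 to 6.08 in control and at 7.65 to 9.53 with let-7a (change 3.09, limma adjusted p = 0.00182). Celf6 rose by 1.85 (limma adjusted p = 0.00251), Srrm4, which drives inclusion of neuronal microexons, by 1.78 (limma adjusted p = 0.0204), and among the Hu proteins Elavl4 by 1.72 (limma adjusted p = 0.00194) with Elavl3 at 1.68 (limma adjusted p = 0.00765). Ptbp1, the repressor of neuronal splicing in other cells, had a change of -0.28 (limma adjusted p = 0.228). Rest, the repressor of neuronal genes, had a change of -0.41 that passed with the block only (limma adjusted p = 0.0354 against 0.190).

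Of 31 neuronal cytoskeleton genes, 13 rose and 0 fell, with a median change of 0.71, and with the block 22 were higher (24 without replicate 3). Stmn4, a microtubule regulator, was at 10.76, 10.22 and 10.82 in control and 13.64, 12.81 and 13.51 with let-7a, 6.59-fold higher (limma adjusted p = 0.000137). Dcx, which stabilizes microtubules in migrating neurons, rose by 1.99 (limma adjusted p = 0.0241), the neurofilament Nefm by 1.85 (limma adjusted p = 0.00184), its partner Nefl by 1.70 (limma adjusted p = 0.00189), and Mapt (tau) by 1.81 (limma adjusted p = 0.000272). The neuronal tubulin Tubb3 was at 11.81, 11.45 and 11.86 in control and 13.26, 12.61 and 13.46 with let-7a (change 1.40, limma adjusted p = 0.0024). Stmn2, a microtubule regulator of growth cones, had overlapping groups and a change of -0.03 (limma adjusted p = 0.976). Of the 8 neuronal markers, 5 rose and 0 fell, with a median change of 1.28. Of the 12 markers of P19 cells, 0 rose and 3 fell, namely, Lin28a, Trim71 and Utf1, with a median change of -0.33. Lin28a and Trim71 are also among the oncofetal let-7 targets above.

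Genes of dense-core granules and synaptic vesicles rose in 22 of 40 cases, with 0 lower and a median change of 0.78. With the block 24 were higher, and without replicate 3 32 were higher and 1 lower. The largest change was that of Sybu (syntabulin), which links vesicles to kinesin, at 5.72, 5.16 and 6.23 in control and 9.98, 8.56 and 9.83 with let-7a, 13.5-fold higher (change 3.76, standard error 0.35, limma adjusted p = 0.000283). The granins Chgb (2.69, limma adjusted p = 0.000723), Scg2 (2.59, limma adjusted p = 1.67e-06) and Chga (2.40, limma adjusted p = 0.000691), which build the granule core, rose. Scg2 was at 10.18, 9.83 and 10.13 in control and 12.74, 12.44 and 12.72 with let-7a, and it was 1 of the 2 genes that passed without replicate 4. Syp, a membrane protein of synaptic vesicles, rose by 0.86 (limma adjusted p = 0.0062), and Snap25, a SNARE of the presynapse, had a change of 0.17 with overlapping groups (limma adjusted p = 0.876).

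Of 45 axon guidance and adhesion genes, 14 rose and 1 fell, with a median change of 0.60, and of 50 genes of neurotransmission and ion channels 14 rose and 0 fell, with a median of 0.54. With the block 22 and 23 were higher, and 3 and 2 lower. Without replicate 3, 23 and 24 were higher and 5 and 4 lower. The count of axon guidance genes that were higher was 8 with the 75th percentile scaling, 9 with no filter on dim probes and 7 of the 35 with probes well above background on all arrays. Their median was 0.39 with normexp and 0.22 over these 35 genes. The median for neurotransmission was 0.22 with normexp, 0.31 in the authors' table and 0.36 over the 40 genes well above background on all arrays. The semaphorin receptor Nrp2 rose by 1.90 (limma adjusted p = 0.0178), its coreceptor Plxna4 by 1.85 (limma adjusted p = 0.00122) and the adhesion molecule Chl1 by 2.02 (limma adjusted p = 0.00155). The netrin receptor Unc5a fell by 0.47 (limma adjusted p = 0.048). Slc17a6, the vesicular glutamate transporter VGLUT2, was at 8.70, 8.47 and 8.76 in control and 11.47, 10.92 and 11.42 with let-7a, 6.18-fold higher (change 2.63, limma adjusted p = 4.02e-05). Gria2, an AMPA receptor subunit, and Htr3a, a serotonin receptor, were not well above background on any control array and were at least 2.96-fold and 2.57-fold higher (limma adjusted p = 0.0016 and 0.0306). Gad1, which makes GABA, had a change of -0.26 with overlapping groups (limma adjusted p = 0.592), and the acetylcholine transporter Slc18a3 had one of 0.09.

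Among markers of other lineages, those of mesoderm and heart gave the most calls. Of 13 glial genes 1 rose, Pdgfra (1.36, limma adjusted p = 0.0492), a receptor also found in mesoderm, and the summed level of the list was 13.04 to 13.34 in control and 13.21 to 13.49 with let-7a. S100b and Erbb3 were not measured. Of 5 trophoblast genes 0 passed by limma, also at an unadjusted p under 0.05, and 1 passed with the block, with summed levels of 12.03 to 12.13 in control and 11.96 to 12.15 with let-7a, and Hand1, Elf5 and 3 more were not measured. Among 9 endoderm genes, Hnf4a rose. It was not well above background on any control array and was at least 1.78-fold higher (limma adjusted p = 0.00722), and Sox17, Afp, Ttr and 4 more were not measured. Of 16 genes of mesoderm and heart, 4 (25.0%) rose and 0 fell, 11 had a positive change, and the median change was 0.48 (0.27 with normexp). Those that rose were Hand2, Isl1 and Pdgfra, which are named above, and Kdr (0.57), whose 2 probes changed by -0.02 and 1.15. With the brightest probes 2 were higher, and 1 of the 11 genes with probes well above background on all arrays was. Among 14 Hox genes, 3 rose, all of the HoxC cluster, namely, Hoxc9, which was at least 3.62-fold higher (limma adjusted p = 0.00484), Hoxc6 (2.17, limma adjusted p = 0.00719) and Hoxc4 (1.58, limma adjusted p = 0.0197). Hoxc6 was above background on 1 control array and Hoxc9 on 0, so that the size of the Hoxc6 change is uncertain. With only probes well above background on all 16 arrays, 8 Hox genes were left, of which 1 was higher, with a median change of -0.21 (0.03 over the 14 genes). With the block 4 Hox genes were higher and 3 lower, and without replicate 3 5 and 3. Without replicate 3, 3 glial, 3 endoderm and 7 mesoderm genes were higher and 0, 1 and 1 lower.

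Of 20 genes of retinoic acid metabolism and response, which drives neural differentiation of P19 cells in culture, 4 rose and 0 fell. Among the proteins that carry retinoic acid inside the cell, Crabp1 rose by 2.26 (limma adjusted p = 0.000956) while for Crabp2 the change was 1.09 (limma adjusted p = 0.00178). Crabp2 was at 13.95, 13.78 and 13.98 in control and 15.02, 14.97 and 14.98 with let-7a. Aldh1a1, which makes retinoic acid, rose by 1.61 (limma adjusted p = 0.00187), and the homeobox factor Meis1 by 1.26 (limma adjusted p = 0.0197). The receptor Rara had a change of 0.21 and did not pass. With the block 8 genes of this list were higher and 4 lower, and without replicate 3 the counts were the same.

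For Wnt, TGFβ and BMP, YAP, epithelial and interferon genes, between 0 and 2 members of each list rose and 0 or 1 fell. Without replicate 3, these lists held 1 to 6 higher and 3 to 9 lower genes, the most lower ones for TGFβ and BMP (9 of 29). Fzd10, a Wnt receptor, fell by 0.60 (limma adjusted p = 0.0341), Tgfbr3 by 0.73 (limma adjusted p = 0.0154) and Yap1 by 0.43 (limma adjusted p = 0.0277), and Bmp2 rose by 1.05 (limma adjusted p = 0.0132). Of 36 matrix and integrin genes, 4 rose and 2 fell, led by the integrin Itga4 (2.39, limma adjusted p = 0.0162) and the laminin Lama2 (1.84, limma adjusted p = 0.0296), whereas the basement membrane genes Col4a2 (-0.59) and Lama5 (-0.41) fell. With the block 8 were higher and 3 lower, and without replicate 3 8 and 7, whereas with no filter on dim probes 2 were higher and 1 lower. Of 20 imprinted genes 4 rose, among them Nnat, a membrane protein of developing brain (1.38, limma adjusted p = 0.0166), and Mest (0.95, limma adjusted p = 0.00413), and without replicate 3 8 were higher and 3 lower. For genes of the unfolded protein response, DNA methylation, cholesterol synthesis and housekeeping, 0 members passed by limma in either direction, with medians of -0.01, 0.02, -0.18 and 0.01. The first of these differed between replicates (0.17, -0.44 and 0.19) and was 0.18 without replicate 3, and the median for cholesterol synthesis was then -0.11. At an unadjusted p under 0.05 these lists had 0, 4, 4 and 3 members, and with the block 0, 3, 5 and 4 passed. Without replicate 3, 6 genes of the unfolded protein response were higher and 2 lower, 2 and 4 of DNA methylation, and 1 and 5 of cholesterol synthesis. Of 20 glycolysis genes 1 rose, Ldhb, a subunit of lactate dehydrogenase (0.54, limma adjusted p = 0.0111). Without replicate 3 7 of these genes were higher, with the 75th percentile scaling 0 were, and 19 of the 20 had a positive change, with a median of 0.17 that was 0.0061 with this scaling. Of 13 genes of the primed epiblast Pou3f1 and Sox4 rose, the latter by 0.60 (limma adjusted p = 0.0272). Among the genes with the largest changes outside these lists, the homeobox factor Tlx2 (2.97), Dach1 (2.90), Cttnbp2 (2.79), the phospholipase Pla2g2f (2.78) and Rgs4 (2.74), which damps G protein signalling, rose. Jaml (-1.79), Ccnb1ip1 (-1.62), the forkhead factor Foxb2 (-1.60), Zdhhc23 (-1.51) and Tcea3 (-1.49) fell. These 10 genes had limma adjusted p values of 0.000272 to 0.00712. The transcript 4930519N06Rik, at chr11:33993044-33993103 in build mm9, was not well above background on any control array and stood at 8.86, 8.25 and 8.81 with let-7a, at least 29.3-fold higher (limma adjusted p = 9.64e-06).

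The let-7a mimic was also given to cells with Sfpq knockdown, and let-7a + siSfpq against siSfpq is the same comparison in other samples. Both were fitted in 1 model with a shared spread per gene, and same-numbered replicates deviated together, so that shared calls are not independent. With only the 2 knockdown groups fitted, 223 genes were called, against 1917 in the fit of all groups. In this latter fit, 1153 genes (6.62%) rose and 764 (4.39%) fell with let-7a in the knockdown cells. Of the 919 genes that rose with let-7a alone, 534 rose there too and 881 had a positive change, with a median of 0.78, and 2 fell. Of the 382 genes that fell, 170 fell there and 357 had a negative change, with a median of -0.40, and 1 rose. Of all genes, 48.8% had a positive change in the knockdown cells, with a median of -0.01. The shared genes were 58.1% of those that rose without knockdown and 46.3% of those that rose with it, and 44.5% and 22.3% of those that fell. In the knockdown cells, T changed by -2.39 (limma adjusted p = 0.00449), Hmga2 by -1.50 (limma adjusted p = 0.0101) and Lin28a by -0.64 (limma adjusted p = 0.00871). Dbh changed by 3.88 (limma adjusted p = 0.00108) and Sybu by 1.72 (limma adjusted p = 0.0153). Neurod2 changed by 3.28 (limma adjusted p = 0.00159), but 2 of 4 siSfpq arrays did not measure it above background, so that the size of this change is uncertain. Nodal changed by -0.26 there (limma adjusted p = 0.525) and Nefl by -0.04 (limma adjusted p = 0.947), but their differences from the change without knockdown did not pass. By limma, 0 genes passed the test of this difference, with 1142 at an unadjusted p under 0.05. With the block 4 genes passed. Ecel1 changed by 1.43 without and -0.28 with knockdown, Pdlim3 by 1.69 and 0.31, Ptchd1 by 2.09 and -0.72, and Rnf182 by 1.27 and -1.17. Without replicate 3, 4092 genes passed, and without replicate 4 limma called 0 genes in this test and 0 for let-7a in knockdown cells (8411 without replicate 3).

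**Figure D4:**
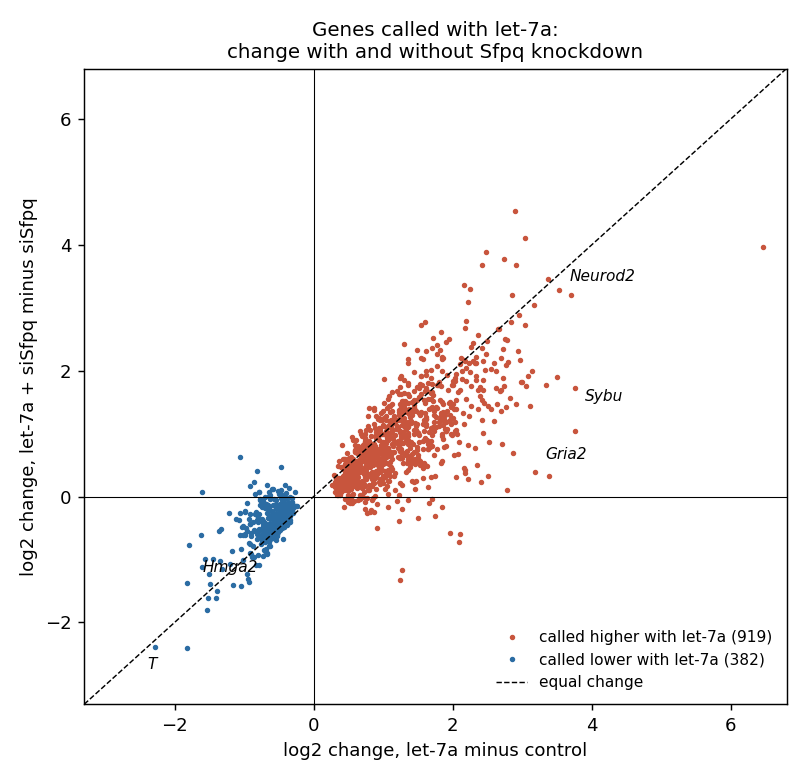
Each point is 1 of the 919 genes called higher (orange) or 382 called lower (blue) with let-7a, with its log2 change without Sfpq knockdown on the x axis and with it on the y axis, 3 samples per group. The genes were chosen by the x axis, most lie on the same side of 0 on both axes (881 and 357), and the dashed line marks equal changes.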

How the data were processed

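RNA of P19 cells was measured on 16 arrays, 4 per group as the labels give them. The deposited scanner files hold spot intensity values that the authors extracted with Agilent Feature Extraction 10.7.3.1, background-corrected but not normalized between arrays. A table of log2 values deposited with them, which the authors quantile normalized with limma, served as an alternative. Here the processed intensity was taken to log2, quantile normalized, averaged over spots of a probe and over probes of a gene, for probes well above background on every array of at least 1 group, which left 17405 genes. Genes were named through RefSeq accessions or symbols where these matched, otherwise by the name in the file.

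Differences were tested with limma 3.58.1 in R 4.3.3 (linear model over all 4 groups, empirical Bayes with an intensity trend, Benjamini-Hochberg adjustment, threshold 0.05). Arrays 1 and 2 were averaged, which left 12 samples, 3 per group. With 3 against 3, an exact permutation test of 1 gene cannot go below p = 0.1, two-sided, so that calls come from the model across all genes. Replicate numbers paired the samples, as same-numbered samples deviated together in every pair of groups (correlations of 0.2817 to 0.7044), and the replicate was added as a block in an alternative. Each slide held all groups, with replicates 1 and 2 on the first and 3 and 4 on the other. On simulated data, 200 changed genes were used to check the fit. Tables and plots were made with pandas 2.3.3 and matplotlib 3.10.9 in Python 3.11.15.

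For a gene not well above background on any array of a group, the fold is a lower bound, the mean of the brighter group against, per array, the higher of the dim probe's signal and the lowest signal well above background. The summed level of a list is log2 of the summed linear intensities. The precision is limited by the number of arrays. The list of Ago2 peak genes holds the genes for which the study names Ago2 peaks with let-7a that were reduced without Sfpq. Members and gene lists were chosen with earlier results of these data known. Genes were named by a rule, namely, the 15 largest rises and falls measured on all 8 arrays without overlap, 3 bounds in each direction, called members of each list (all for the let-7 targets, up to 5 in each direction otherwise), up to 3 members of a list that did not pass with the highest level, Sfpq, Lin28a and housekeeping genes. Neurog2, Neurod4, Phox2a, Lin28b, E2f5, Nr6a1, Ccnd1, Cdk6, Cdkn1a, Cdc6, Top2a, Syp, Gad1, Rest, Sp8, Myt1, Ecel1, Pdlim3, Ptchd1 and Rnf182 were chosen after their values were seen, and Sox2, Tdgf1 and Tubb3 as cell type markers. Some genes that the rule names are not reported here.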

Additional observations from a re-analysis of the deposited data

How the results depend on the processing

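Changing the scaling, background correction, filter on dim probes, choice of probe, processed table, slide block, intensity trend or number of groups fitted left between 678 and 1190 genes higher and between 300 and 544 lower. Larger shifts came with the replicate block (2098 higher, 1781 lower), with all 16 arrays counted as separate samples (1970 and 1612), with a minimum log2 change of 1 (530 and 34) and with slide 2 alone (3 and 0). Leaving out 1 replicate gave 2 to 2834 genes higher and 0 to 2626 lower, the lowest without replicate 4 and the highest without replicate 3. All 919 and 382 genes kept their sign in these last fits, which reuse samples that chose the genes and are thus no independent check. In Sfpq knockdown cells, 1917 genes were called, against 1097 with no filter on dim probes, 5828 with the replicate block, 5739 with 16 separate arrays, 223 with only the 2 groups compared, 1 on slide 2 alone and 0 to 8411 without 1 replicate. For the difference between both changes, 0 genes were called, against 5 with no filter, 4 with the block, 213 with 16 separate arrays and 0 to 4092 without 1 replicate. With the brightest probe of a gene, the change of Kdr was -0.015. That of Hspa5 ranged from -0.16 to 0.21 without 1 replicate, and the median of the growth let-7 targets from -0.013 to 0.0082, and it was 0.0206 with no filter on dim probes. The replicate block, beyond the values printed with the results, ended no call of a named gene, and 41 named genes passed with it that did not without it, as 64 did without replicate 3. Without replicate 4, as on slide 2 alone, 144 named genes no longer passed. Of the named genes, 30 lost their call with no filter on dim probes, 20 with the 75th percentile scaling, 14 without an intensity trend, 12 with the brightest probe, 10 in the authors' table and 10 without replicate 1, 9 with the 2 groups alone, 6 with normexp and 6 with only probes well above background on all arrays, and 3 without replicate 2. With only probes well above background on all arrays, some named genes were filtered out and are not in that count of 6. The causes of these losses were not tested. Signal over background limits the 46 higher genes that were measured as bounds and the 88 that were above background on only some control arrays.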
